A study of Mus musculus with 4 samples.

Results

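Autophagy and lysosome genes were followed in newborn mouse epidermis as 38 genes, 26 of autophagy and 12 of the lysosome, out of 54752 genes in the tables. They were picked by gene symbol, and their FPKM (fragments per kilobase of transcript, scaled to the fragments of the library, so a level per length) was read in every library. RNA came from the epidermis of 4 C57BL/6 pups at postnatal day 0. Of these, 2 were Skiv2l fl/fl K14-Cre (the knockouts below), in which Cre recombinase under the keratin 14 promoter removes the floxed part of Skiv2l in keratinocytes, while melanocytes, leukocytes and other cells of the sheet keep the gene. The other 2 were Skiv2l ctl pups (the controls), and whether these 4 pups shared a litter is not stated. The study uses the name Skiv2l ctl for pups with 1 or both alleles floxed and no Cre. Cre carriers with a single floxed allele are also given that name. Every control thus had at least 1 floxed allele and may have had Cre, and the sample labels do not say which form each pup was. The pups are separate animals, and the libraries hold between 16138 and 17761 genes above an FPKM of 0.5, the fewest in knockout replicate 2.

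Skiv2l encodes the helicase of the SKI complex, which feeds mRNA into the cytoplasmic RNA exosome. Its FPKM went from 19.3 and 19.1 (Skiv2l ctl) to 10.8 and 8.56 (Skiv2l fl/fl K14-Cre), a difference of -0.92 on the log2(FPKM + 1) scale (standard error 0.12, limma adjusted p = 0.00368). Exons of Dxo overlap those of Skiv2l on the opposite strand. A gene is called higher or lower below where limma, run over all 13609 tested protein-coding genes, gave a Benjamini-Hochberg adjusted p under 0.05. Over all tested genes the median difference was -0.20, and -0.01 after scaling all libraries to a common median (median scaling below), so a gene at -0.20 sat where the middle of the transcriptome sat. Among all 13609 tested genes 8.99% were called higher and 25.4% lower, and the marker counts that follow stand beside these shares. Keratinocyte markers were abundant in all 4 libraries, with 2 of 9 called higher (22.2%) and 3 lower (33.3%). Ratios of means were 4.14 for Krt14 and 4.99 for Dsg3, both higher. They were 0.278 for Krt15, 0.526 for Lor and 0.704 for Krt1, all lower. The summed FPKM of the 9 was 31220 and 32340 in controls against 27980 and 30990 in knockouts, and it does not show these opposite changes. Of 10 tested leukocyte markers 5 were called lower and 0 higher. The summed FPKM of all 12 markers of that list went from 45.4 and 56.2 in Skiv2l ctl to 29.1 and 25.8 in Skiv2l fl/fl K14-Cre. The Langerhans cell marker Cd207 was at 0.0417 or below in every library. Of 7 melanocyte markers 1 (14.3%), Tyrp1, was called higher, and the sum of all 7 was 59.9 and 67.2 against 62.9 and 76.2. Of 5 tested fibroblast markers 2 (Dcn and Col1a2) were called lower (40.0%), and of 5 erythroid markers 4 (80.0%). All 6 fibroblast markers summed to 61.4 and 69.0 against 22.0 and 25.0, most of it Dcn, and erythroid markers to 134 and 125 against 62.0 and 80.7. Endothelial and muscle markers summed to at most 0.827. In bulk RNA, fewer cells of a type and less RNA per cell cannot be told apart, and the part of these cells in the results below was not tested.

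Macroautophagy wraps cytoplasm in a double membrane that closes into an autophagosome and fuses with the lysosome. The ULK1 kinase complex starts the process, the class III phosphatidylinositol 3-kinase complex marks the growing membrane, ATG9 and ATG2 supply it with lipid, and ubiquitin-like conjugation fixes proteins of the ATG8 family (LC3 and GABARAP) onto it, where receptors such as p62 tie in their cargo. The lysosome then digests the contents with acid hydrolases, at a pH kept low by the V-ATPase proton pump. When nutrients are plentiful, mTORC1 phosphorylates ULK1 and the transcription factor TFEB and so holds both autophagy and lysosome production back. In the epidermis, autophagy and lysosomal proteases are known for their part in the terminal differentiation of keratinocytes and in the clearing of organelles.

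TFEB and its relatives TFE3 and MITF bind an E-box with the core CACGTG, and the palindrome TCACGTGA is the centre of the element through which they drive lysosomal genes. Shown here are the lysosome genes with a core before the start site and Atg3, the called autophagy gene with one, because they include members called higher, called lower and not called. For Ctsd the stretch nearer to the start is shown. Promoters of 300 bases (250 before and 50 after the RefSeq start, GRCm38.p6) were at hand for 21 of the 26 autophagy genes and 11 of the 12 lysosome genes. Becn1, Atg12, Map1lc3a, Pik3c3, Atg16l1 and Ctsb had none. The core, which is the same on both strands, was found in 7 of 11 lysosome promoters (63.6%) and 4 of 21 autophagy promoters (19.0%), against 8.09% of all 27025 genes with a promoter and 11.5% of the 10534 of these that were tested. The longer TCACGTGA, each of which also counts as a core, was found in 5 of 11 (45.5%) and 1 of 21 (4.76%), against 1.12% and 2.09%. In the further lists given below, the core was in 8 of 29 promoters of hydrolases (27.6%) and 5 of 19 of membrane and sorting genes (26.3%). It was in 2 of 17 of further V-ATPase genes (11.8%) and 4 of 32 of further autophagy genes (12.5%). TCACGTGA was in 3.45%, 21.1%, 5.88% and 3.12% of these, in that order. The shares of the 11 lysosome promoters thus do not hold for lysosome genes in general. The stretches lie at chr7:142387890-142387955 (minus strand) for Ctsd, chr16:44139355-44139420 (minus) for Atp6v1a, chr13:64370721-64370770 (minus) for Ctsl, chr8:13159070-13159160 (plus) for Lamp1, chr8:3500418-3500509 (plus) for Mcoln1, chr2:164833731-164833772 (plus) for Ctsa and chr16:45158705-45158793 (plus) for Atg3. Each is printed 5′ to 3′ along the gene with every CACGTG, or TCACGTGA where it is complete, in capitals.
Ctsd: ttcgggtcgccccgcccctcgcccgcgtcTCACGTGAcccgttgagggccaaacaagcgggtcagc
Atp6v1a: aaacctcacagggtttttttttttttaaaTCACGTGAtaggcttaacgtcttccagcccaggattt
Ctsl: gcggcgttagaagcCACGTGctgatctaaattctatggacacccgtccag
Lamp1: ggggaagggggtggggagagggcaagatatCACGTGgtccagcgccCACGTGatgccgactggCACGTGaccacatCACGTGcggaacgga
Mcoln1: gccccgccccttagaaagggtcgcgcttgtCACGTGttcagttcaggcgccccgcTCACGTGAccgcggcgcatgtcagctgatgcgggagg
Ctsa: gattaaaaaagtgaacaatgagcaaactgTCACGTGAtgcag
Atg3: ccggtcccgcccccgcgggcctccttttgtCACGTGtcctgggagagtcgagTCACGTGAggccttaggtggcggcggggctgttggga

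Among these, the cores began 98 bases before the start in Ctsd, 131 in Atp6v1a and 236 in Ctsl, and all 3 of these genes were called higher in Skiv2l fl/fl K14-Cre epidermis. Lamp1 had 4 cores between 61 and 15 bases before the start, and its log2 difference was 0.00. Mcoln1, with cores at 71 and 45, differed by -0.04, and Ctsa, with a core 12 bases before the start and another just after it, by -0.19. Atg3 had cores at 94 and 71 and was called lower. A further core of Ctsd began at 245, Atg7 and Atg5 held 1 core each at 132 and 14, and the cores of Atp6v0d1 and Atg14 lay across the start. The starts here are RefSeq starts, and they differ from the gene coordinates that go with the FPKM values. By those coordinates the stretches of Ctsd, Atp6v1a, Ctsl and Ctsa lie inside the gene. Those of Mcoln1 and Atg3 reach into it, and that of Lamp1 lies before it. A match of letters describes the promoter and is not a measured binding site.

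All 38 genes were above an FPKM of 0.5 in all 4 libraries, so none entered the test through 1 group alone. The lowest value was 1.13 (Atg10) and the highest 493 (Ctsd), and in the mean of the Skiv2l ctl libraries the genes lay between percentile 22.3 (Atg10) and 99.2 (Ctsd) of the tested genes. Of the 26 autophagy genes 3 were called higher (11.5%) and 2 lower (7.69%), where 8.99% of all tested genes were called higher and 25.4% lower. Their median log2 difference was -0.04 against -0.20 over all tested genes. Of the 12 lysosome genes 3 were called higher (25.0%) and 0 lower by limma (1 at an unadjusted p under 0.05), with a median of 0.09. In 6 autophagy and 6 lysosome genes (23.1% and 50%) both knockout libraries exceeded both controls, against 18.2% of all tested genes. They were below both for 9 and 3 (34.6% and 25.0%), against 55.3% of all tested genes. With median scaling, 5 autophagy genes and 6 lysosome genes were called higher (19.2% and 50%, against 14.1% of all tested genes) and 0 lower (11.5% of all). Under quantile normalization the genes called higher numbered 5 for autophagy and 2 for the lysosome, beside 1683 of all 13609 tested genes. Leaving out 1 library changed these counts. Autophagy genes called higher numbered 0 without Skiv2l ctl 1, 1 without Skiv2l ctl 2, 5 without the first knockout and 1 without the second, and those called lower 0, 0, 1 and 1. Lysosome genes called higher numbered 1 (Ctsl), 2, 2 and 4 in the same order. Over all tested genes, 497 and 542 were then called higher without the first or the second control, against 1223 with both.

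**Figure D1:**
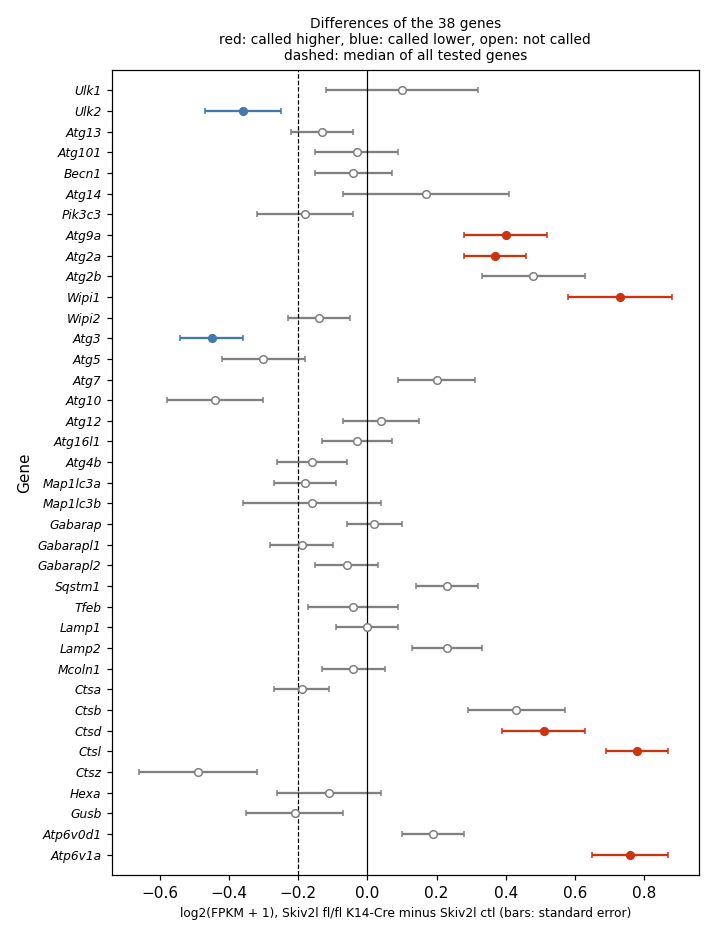
Difference in log2(FPKM + 1) of knockout over control epidermis (points, with standard error) for the 38 genes, 2 libraries per genotype. Of the 8 called genes 6 lie to the right, from 0.37 for Atg2a to 0.78 for Ctsl, and 2 to the left (Ulk2 and Atg3), while the dashed line marks the median of all tested genes at -0.20.

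Of the 4 genes that start autophagy 1 was called, and it was lower (25.0%), near the 25.4% of all tested genes called lower. Ulk1 encodes the initiating kinase, and its FPKM was 35.1 and 38.5 (controls) against 30.8 and 50.6 (knockouts). The 2 knockout pups lay on either side of the controls, the second at 1.64 times the first, and the log2 difference of 0.10 (95% interval -0.43 to 0.63) turned to -0.25 without the second. Without the first it was 0.45 and Ulk1 was called higher (limma adjusted p = 0.0282). Its paralog Ulk2 (chromosome 11, 61775649 to 61855073) had 5.47 and 5.20 (controls) against 3.91 and 3.95 (knockouts). Both knockouts were below both controls, and Ulk2 was called lower at -0.36 (standard error 0.11, limma adjusted p = 0.0452). Ulk2 was not called with median scaling (-0.17, limma adjusted p = 0.294), quantile normalization (0.355), no filter on FPKM (0.0869) or all gene types (0.0737), or with any 1 library left out, where limma adjusted p lay between 0.0836 and 0.236. Atg13 (33.0 and 35.4 against 29.8 and 32.4 FPKM) and Atg101 (12.6 and 11.7 against 10.9 and 13.1), scaffold subunits of the same complex, were not called. Rb1cc1, which encodes FIP200, the remaining subunit, was called lower, from 34.2 and 35.0 to 28.3 and 24.8 FPKM (-0.37, limma adjusted p = 0.0286), and not with median scaling (limma adjusted p = 0.182).

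None of the 3 genes of the phosphatidylinositol 3-kinase complex was called by limma, at an adjusted or an unadjusted p under 0.05. Becn1 encodes the scaffold beclin 1 and had 18.0 and 21.4 FPKM (controls) against 19.7 and 18.4 (knockouts). Atg14, the subunit that directs the complex to autophagosome formation, had 4.66 and 6.45 against 4.86 and 8.10. Pik3c3, the catalytic subunit, had 9.32 and 10.3 against 7.50 and 9.73. In each of these genes the libraries of both genotypes overlapped. The 95% interval of the difference ran from -0.31 to 0.23 for Becn1, from -0.41 to 0.75 for Atg14 and from -0.52 to 0.16 for Pik3c3. Of the stretches of 75 bases of Becn1 transcripts, 33.6% occur in another gene, Cntd1 overlapping it on the other strand.

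Of the 5 genes of membrane supply and of the lipid-binding WIPI proteins, 3 were called higher and 0 lower. These 3 were all of the autophagy genes called higher. Among all tested genes 8.99% were called higher and 25.4% lower. The members were chosen with earlier results of these data known, so no conclusion on this role is drawn from the count. Wipi1 (chromosome 11, 109573331 to 109611967), which binds phosphatidylinositol 3-phosphate on the forming autophagosome, had the largest rise among the autophagy genes. Its FPKM was 3.19 and 4.39 (controls) against 6.87 and 6.93 (knockouts), a ratio of means of 1.82 and a log2 difference of 0.73 (standard error 0.15, limma adjusted p = 0.0137). Without Skiv2l ctl 1, the lower of the controls, it was 0.55 and not called (limma adjusted p = 0.0997). Wipi2, its paralog, was far more abundant and was not called, at 36.7 and 38.9 against 33.3 and 35.4 FPKM.

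The lipid transfer proteins ATG2A and ATG2B bridge the endoplasmic reticulum and the growing membrane. Atg2a (chromosome 19, 6241668 to 6262335) had 26.7 and 26.2 FPKM (controls) against 33.1 and 35.8 (knockouts), and was called higher at 0.37 (standard error 0.09, limma adjusted p = 0.0214). It was called without the first knockout and not without either control or the second knockout, with limma adjusted p between 0.0539 and 0.13. Atg2b had 17.7 and 16.5 against 20.8 and 28.2. Both its knockouts were above both controls, but they differed from each other by a ratio of 1.36, and at 0.48 (standard error 0.15) it missed the threshold (limma adjusted p = 0.0504). Atg2b was called at 0.67 with median scaling (limma adjusted p = 0.0268) and without the first knockout (limma adjusted p = 0.00949). Atg9a (chromosome 1, 75180860 to 75192196) encodes the lipid scramblase that seeds the membrane. It had 13.3 and 15.3 FPKM (controls) against 17.6 and 20.8 (knockouts), a called difference of 0.40 (standard error 0.12, limma adjusted p = 0.0474). Atg9a was not called with no filter on FPKM (limma adjusted p = 0.0919), with all gene types (0.064), with TPM (0.0521) or with eBayes without a trend (0.0677). Its call held without the first knockout, and not without Skiv2l ctl 1 (limma adjusted p = 0.247), Skiv2l ctl 2 (0.12) or the second knockout (0.139). Exons of Ankzf1 overlap Atg9a on the opposite strand, and 28.8% of its stretches of 75 bases occur in another gene. Ankzf1 had 8.57 and 11.2 FPKM (controls) against 8.83 and 11.8 (knockouts). Atg9b, the paralog of Atg9a, stood at 45.8 and 45.9 against 51.5 and 48.2 FPKM and was called with median scaling but not without it (0.31, limma adjusted p = 0.0345).

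**Figure D2:**
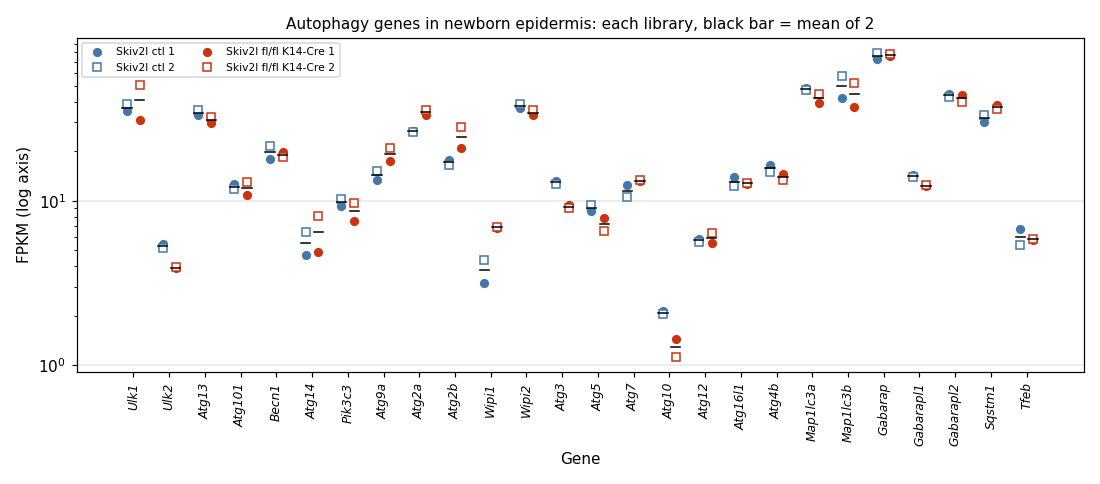
FPKM (log axis) of the 26 autophagy genes in each of the 4 libraries, ordered by role, with the mean of each genotype as a black bar. The knockout points of Wipi1, Atg2a and Atg9a lie above both controls, those of Ulk2 and Atg3 below both, and those of most other genes overlap the controls or lie close to them.

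In the conjugation machinery 1 of 7 genes was called, and it was lower (14.3%, against 25.4% of all tested genes). Atg3 (chromosome 16, 45158785 to 45188538), the E2-like enzyme that passes ATG8 proteins to lipid, had 13.2 and 12.7 FPKM (controls) against 9.44 and 9.01 (knockouts), with a difference of -0.45 (standard error 0.09, limma adjusted p = 0.0155). After median scaling the difference was -0.26 and Atg3 was no longer called (limma adjusted p = 0.0913), nor was it without Skiv2l ctl 1 (0.129) or Skiv2l ctl 2 (0.105). Atg10, the E2-like enzyme for ATG12, was the scarcest of the 38 genes. It had 2.13 and 2.06 against 1.44 and 1.13 FPKM, both knockouts below both controls, and narrowly missed the threshold at -0.44 (standard error 0.14, limma adjusted p = 0.051). Atg5, the acceptor of ATG12, had 8.66 and 9.47 against 7.82 and 6.60, again with no overlap and no call. Atg7, the E1-like enzyme that both conjugation routes share, had 12.4 and 10.5 against 13.2 and 13.3. Atg12 was at 5.90 and 5.59 against 5.58 and 6.35, Atg16l1, which brings the ATG12-ATG5 conjugate to the membrane, at 13.9 and 12.3 against 12.7 and 12.9, and Atg4b, the protease that primes ATG8 proteins, at 16.6 and 15.0 against 14.6 and 13.5. Along the ATG8 route, both knockouts lay above both controls for the activating enzyme, Atg7, and below them for the next, Atg3. Of all tested genes 18.2% lay above both controls in this way and 55.3% below. Atg7 was not called as the values stand (0.20, limma adjusted p = 0.195) or with median scaling (0.39, limma adjusted p = 0.0537).

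The ATG8 family held 5 of the 26 autophagy genes. The FPKM of its members summed to 222 and 241 in Skiv2l ctl and to 209 and 227 in Skiv2l fl/fl K14-Cre, and none was called by limma, at an adjusted or an unadjusted p under 0.05. Gabarap was the most abundant in every library, at 72.6 and 79.1 against 76.3 and 77.8 FPKM, with a 95% interval of the log2 difference from -0.18 to 0.23. Its share of the family went from 32.7% and 32.9% (controls) to 36.5% and 34.3% (knockouts). Map1lc3a stood at 48.3 and 47.2 against 39.4 and 44.7, and Map1lc3b, the LC3 form used as the usual autophagosome marker, at 42.3 and 57.6 against 37.2 and 51.9. The spread of Map1lc3b between pups of 1 genotype was larger than its difference between genotypes. Gabarapl2 had 44.7 and 42.7 against 44.0 and 40.1 FPKM. Gabarapl1 was the least abundant, at 14.3 and 14.02 against 12.2 and 12.4, with both knockouts below both controls and a difference of -0.19 beside the median of -0.20 over all genes.

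Sqstm1 encodes p62, the receptor that links ubiquitinated cargo to LC3 and a reporter of cargo turnover at the protein level. Its mRNA had 30.1 and 33.3 FPKM (controls) against 38.5 and 36.1 (knockouts). Both knockouts were above both controls, and the difference of 0.23 (standard error 0.09) was not called as the values stand (limma adjusted p = 0.0978) but was called at 0.42 with median scaling (limma adjusted p = 0.0169). The transcription factor Tfeb had 6.74 and 5.38 against 5.82 and 5.87 FPKM, both knockouts between the controls. Its relatives Tfe3 (18.6 and 18.2 against 17.9 and 20.0) and Mitf (5.34 and 5.20 against 4.90 and 6.02) were not called either. These values are mRNA levels, and the phosphorylation and location of these proteins were not measured by this assay.

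Of the 3 lysosome genes called higher 2 encode proteases, as do 5 of all 12 lysosome genes. Among these 5 proteases 2 were called higher (40.0%) and 0 lower, against 8.99% and 25.4% of all tested genes. Cathepsin D, the aspartic protease of the lysosome, had the highest level of all 38 genes. Ctsd (chromosome 7, 142375911 to 142388038) had 300 and 322 FPKM (controls) against 493 and 398 (knockouts), a difference of 0.51 (standard error 0.12, limma adjusted p = 0.0231). Both knockouts were above both controls, and the second knockout was at 0.808 of the first. Ctsd was called with median scaling, and not with no filter on FPKM (limma adjusted p = 0.0738), under quantile normalization (0.053) or without Skiv2l ctl 1 (0.148), Skiv2l ctl 2 (0.107) or the first knockout (0.0576). Of its stretches of 75 bases 31.3% occur in other genes, and Gm49369, an overlapping gene on the same strand, was listed at 0.305 FPKM or below. Ctsl (chromosome 13, 64359337 to 64370890) encodes the cysteine protease cathepsin L, whose loss in mice disturbs epidermis and hair. It rose from 56.9 and 56.5 FPKM to 104 and 92.9, a ratio of means of 1.74 and a difference of 0.78 (standard error 0.09, limma adjusted p = 0.00209). Ctsl was the member with the smallest adjusted p, and it was called under all 9 alternatives that kept every library and with any 1 library left out. Of the stretches of 75 bases of Ctsl 24.6% occur in other genes. The pseudogene Gm49230, which shares sequence with Ctsl, was listed at 0.011 FPKM or below. The levels listed for Gm49369 and Gm49230 do not show how reads from shared stretches were divided between genes.

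The other 3 proteases were not called. Ctsb, cathepsin B, had 43.1 and 52.7 FPKM (controls) against 71.5 and 58.4 (knockouts), with no overlap, and just missed the threshold at 0.43 (standard error 0.14, limma adjusted p = 0.0548), which it passed with median scaling (0.62, limma adjusted p = 0.0172) and without the second knockout (0.58, limma adjusted p = 0.0422). Cathepsins B, D and L together summed to 400 and 431 FPKM in Skiv2l ctl and to 669 and 550 in Skiv2l fl/fl K14-Cre, and Ctsd made up 72.5% or more of the sum in every library. Ctsz, cathepsin Z, had 7.33 and 10.3 against 5.40 and 6.42 FPKM. Both its knockouts were below both controls, at -0.49 (standard error 0.17, limma adjusted p = 0.0684). Ctsa, the protective protein of beta-galactosidase and neuraminidase, had 105 and 109 against 96.4 and 91.7 FPKM, a difference of -0.19 that was 0.00 after median scaling.

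None of the 3 membrane proteins of the lysosome was called by limma, at an adjusted or an unadjusted p under 0.05. Lamp1, its main membrane glycoprotein, had 114 and 129 FPKM (controls) against 120 and 123 (knockouts). Both knockouts lay between the controls, and the 95% interval of the difference was -0.22 to 0.22. Lamp2, needed for the fusion of autophagosomes, had 58.1 and 66.4 against 70.6 and 76.0, with no overlap and a difference of 0.23 (standard error 0.10, limma adjusted p = 0.11). Median scaling brought Lamp2 to 0.42 and across the threshold (limma adjusted p = 0.0242). Mcoln1, the calcium channel that reports lysosomal stress to TFEB, had 17.7 and 18.6 against 17.8 and 17.4. The glycosidases were scarce. Hexa, the alpha subunit of beta-hexosaminidase, had 2.04 and 2.81 against 2.10 and 2.22 FPKM, and Gusb, beta-glucuronidase, 5.77 and 5.805 against 5.62 and 4.20. Neither was called.

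**Figure D3:**
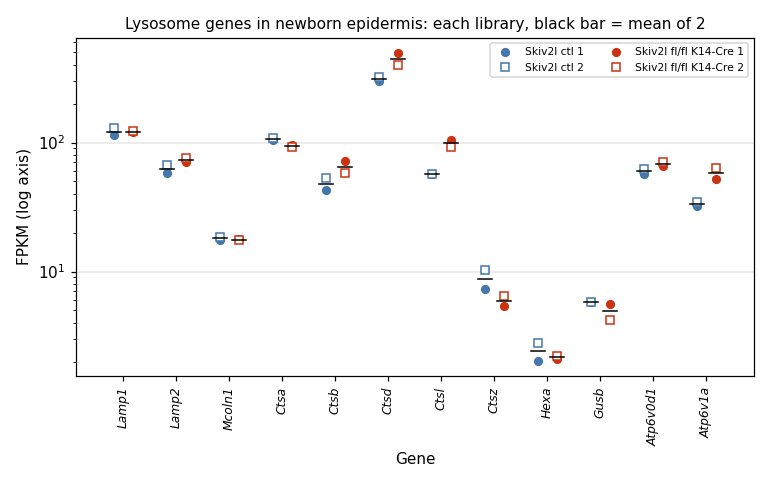
FPKM (log axis) of the 12 lysosome genes in each of the 4 libraries, with the mean of each genotype as a black bar. Ctsd, Ctsl and Atp6v1a, which were called higher, have both knockout points above both controls, and Lamp1 has both between them.

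The V-ATPase pumps protons into the lysosome and consists of a cytosolic V1 sector, which hydrolyses ATP, and a membrane V0 sector. Atp6v1a (chromosome 16, 44085402 to 44139705), the catalytic subunit of V1, rose from 32.4 and 34.6 FPKM to 52.5 and 63.0. Its ratio of means was 1.72 and its difference 0.76 (standard error 0.11, limma adjusted p = 0.00454). Without Skiv2l ctl 1 it was 0.72 and missed the threshold (limma adjusted p = 0.0604). Atp6v0d1, the ubiquitous d subunit of V0, had 56.9 and 62.5 against 65.3 and 70.7. Both knockouts were above both controls, and the difference of 0.19 (standard error 0.09) was not called as the values stand but was with median scaling (0.37, limma adjusted p = 0.0298).

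Other subunits and accessory proteins of the pump, written down as a list by role, differed among their isoforms. Of all 25 genes of the pump, Atp6v0d2, Atp6v1e2 and Atp6v1g3 were too low to be tested. Of the 22 tested, 5 were called higher (22.7%) and 3 lower (13.6%), against 8.99% and 25.4% of all tested genes, with a median of 0.21. With median scaling 12 were higher and 2 lower, where 14.1% and 11.5% of all tested genes were. The B subunit of V1 has 2 isoforms. Atp6v1b1, the isoform of the kidney and inner ear, fell from 24.1 and 28.5 FPKM to 6.97 and 7.58, a difference of -1.72 (standard error 0.11, limma adjusted p = 0.000386). Atp6v1b2, the widespread isoform, rose from 58.2 and 62.8 to 102 and 102, a difference of 0.74 (standard error 0.08, limma adjusted p = 0.0019). The share of Atp6v1b1 in the FPKM of both isoforms was 29.3% and 31.2% in Skiv2l ctl and 6.42% and 6.93% in Skiv2l fl/fl K14-Cre. Among the a subunits of V0, which place the pump in different membranes, Atp6v0a1 rose from 34.4 and 39.7 to 58.2 and 61.1 FPKM and Atp6v0a4 from 8.62 and 9.70 to 20.3 and 20.4. Atp6v0a2 (19.0 and 17.4 against 16.9 and 16.3) and Tcirg1, the a3 subunit (8.30 and 7.74 against 8.69 and 7.66), were not called. Atp6v0e2 fell from 3.04 and 1.76 to 0.470 and 0.546, and Atp6ap2, an accessory protein of the pump, rose from 12.1 and 14.7 to 21.1 and 23.3. With median scaling the directions of these called genes were the same.

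**Figure D4:**
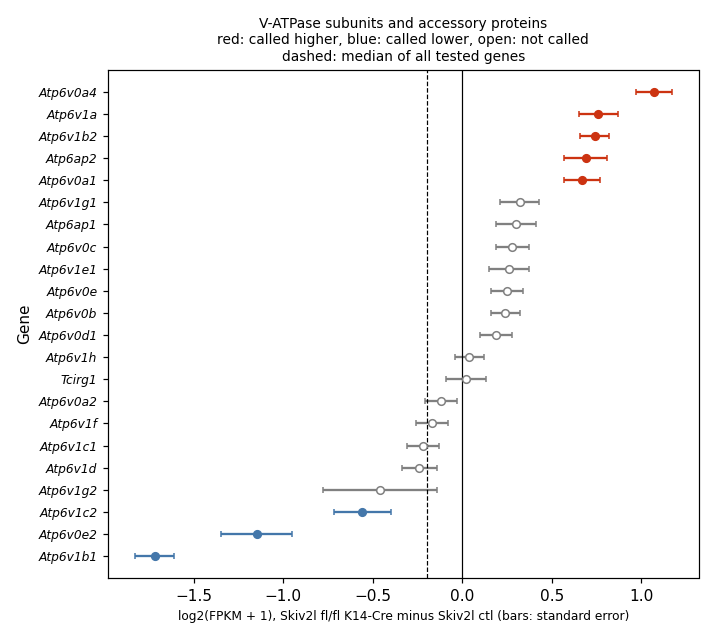
Difference in log2(FPKM + 1) with standard error for the 22 tested V-ATPase genes, ordered by size. Atp6v0a4, Atp6v1a, Atp6v1b2, Atp6ap2 and Atp6v0a1 were called higher, and Atp6v1c2, Atp6v0e2 and Atp6v1b1, at -1.72, lower.

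Of 39 further hydrolases and cofactors 37 were tested, 6 were called higher (16.2%) and 9 lower (24.3%), against 8.99% and 25.4% of all tested genes, so the share called lower was near that of all genes. Their median was -0.20, beside the same value over all tested genes. With median scaling 11 were higher and 6 lower, beside 14.1% and 11.5% of all tested genes. Manba, beta-mannosidase, rose from 3.39 and 3.44 FPKM to 9.25 and 9.78, the largest rise of the list at 1.25 (standard error 0.10, limma adjusted p = 0.000778). Gm2a, the activator of ganglioside breakdown, rose from 45.8 and 43.7 to 78.7 and 74.2. Psap, the precursor of the saposins that activate lipid hydrolases, fell from 179 and 181 to 109 and 105. Asah1, acid ceramidase, fell from 20.4 and 20.9 to 13.5 and 13.4, Fuca1, alpha-fucosidase, from 37.2 and 36.8 to 18.6 and 18.6, and Arsa, arylsulfatase A, from 10.6 and 10.95 to 5.77 and 4.71. Of the cathepsins other than Ctsa, 10 of 12 were tested. Ctsh, a cysteine protease with aminopeptidase activity, rose from 45.0 and 48.4 to 90.1 and 82.5, and it was called beside Ctsd and Ctsl. No cathepsin was called lower by limma, with 2 of them lower at an unadjusted p under 0.05. Acp5, an acid phosphatase known from macrophages and osteoclasts, rose from 8.05 and 9.93 to 18.4 and 24.4 FPKM, and the cells behind this were not tested. Ctss, the cathepsin of antigen-presenting cells, had 7.06 and 11.3 against 6.82 and 6.66 FPKM.

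**Figure D5:**
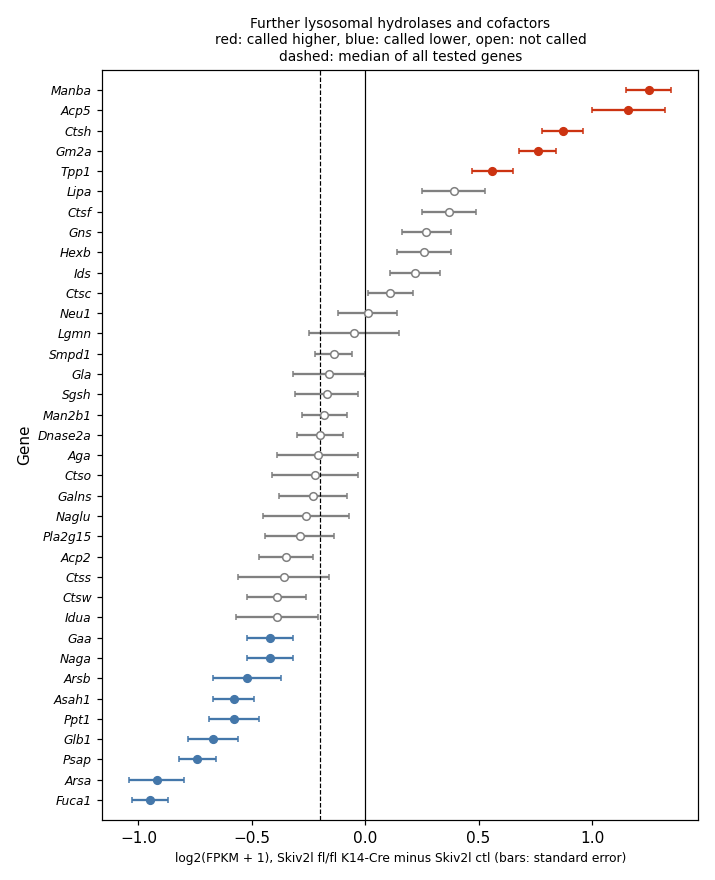
Difference in log2(FPKM + 1) with standard error for the tested hydrolases and cofactors outside the 38 genes, ordered by size, with 1 of the 37 not shown. Called genes lie at both ends, from Manba at 1.25 to Fuca1 at -0.95, and the dashed line marks the median of all tested genes.

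Of 26 further genes of the lysosomal membrane and of enzyme sorting, 24 were tested, 6 were called higher (25.0%) and 5 lower (20.8%), against 8.99% and 25.4% of all tested genes, so the share called lower was near that of all genes. With median scaling 9 were higher and 1 lower, beside 14.1% and 11.5% of all. Tpcn2, a lysosomal cation channel, rose from 6.99 and 7.05 FPKM to 16.5 and 18.4, a difference of 1.20 (standard error 0.10, limma adjusted p = 0.000778). Igf2r, the receptor that brings mannose 6-phosphate enzymes to the lysosome, rose from 12.2 and 11.7 to 18.5 and 19.6. Slc17a5, the sialic acid exporter, rose from 6.49 and 5.49 to 9.77 and 10.3, and Cd63, a tetraspanin of late endosomes, from 26.2 and 33.3 to 47.6 and 44.4. Laptm4b, a lysosomal transmembrane protein, fell from 31.3 and 36.2 to 19.8 and 16.1, and Laptm5, its relative in blood cells, from 7.46 and 8.93 to 5.74 and 4.70. Laptm5 was not called with median scaling (limma adjusted p = 0.0828). Lamp3 was listed at 0 in all 4 libraries, and the Mcoln1 paralog Mcoln2 was too low to be tested.

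Among 38 further autophagy genes, all tested, 4 were called higher (10.5%) and 5 lower (13.2%), with a median of -0.06. The share called higher was near the 8.99% of all tested genes, of which 25.4% were called lower. After median scaling it was 9 higher and 2 lower, beside 14.1% and 11.5% of all. Vmp1, an endoplasmic reticulum scramblase that acts at the start of autophagosome formation, rose from 12.3 and 12.2 FPKM to 20.5 and 20.4. The microRNA gene Mir21a overlaps exons of Vmp1 on the same strand. Bnip3l, a mitophagy receptor, rose from 32.2 and 35.0 to 45.9 and 51.5, and Fundc1, another, fell from 7.33 and 8.17 to 3.69 and 4.19, a difference of -0.83 (standard error 0.12, limma adjusted p = 0.00432). Bnip3 had 9.15 and 7.45 against 8.07 and 23.7, high in the second knockout alone and not called, and 34.4% of its stretches of 75 bases occur in other genes. Wdr45, a further gene of the WIPI family, fell from 29.5 and 33.0 to 19.2 and 19.8, opposite to Wipi1. Gm45208 overlaps exons of Wdr45 on the same strand, and 14.4% of the stretches of 75 bases of Wdr45 occur in other genes. Its paralog Wdr45b had 14.7 and 16.5 against 18.0 and 19.1 FPKM, both knockouts above both controls. Wdr45b was not called as the values stand (0.24, limma adjusted p = 0.111) but was with median scaling (0.42, limma adjusted p = 0.0254). Optn, a cargo receptor, rose from 0.485 and 0.469 to 1.38 and 1.11 FPKM, and it passed the filter of 0.5 through the knockouts alone.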

How the data were processed

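Total RNA of 4 epidermis samples was sequenced, and the authors processed reads into FPKM with the Astrocyte RNA-seq workflow, with GRCm38 named as build in the labels. The authors deposited FPKM, scaled for length and library size, with TPM and a coverage signal (the mean depth of reads over a gene) beside it. Aligner, strand use and annotation are not given in the sources used here, and 54037 of 54752 genes have the coordinates of GENCODE M21. Values were summed per gene identifier. Coding genes that exceeded an FPKM of 0.5 in 1 or more libraries entered a two-sided limma test (limma 3.58.1, R 4.3.3, eBayes with a trend) of log2(FPKM + 1). The test was also run on simulated data with few genes changed and no shift of the median. These libraries differ from that setting, so no conclusion on the calls is drawn from it. The ratio of coverage to FPKM gives 5.843 to 6.274 aligned gigabases per library, and no counts were used. For 2 pups against 2, exact permutation of a single gene gives p = 0.333 at the least, and the number of pups limits precision. The members and lists were chosen with earlier results of these data known. Named were all 38 members, Skiv2l, Tfe3, Mitf, up to 5 called genes with the largest change per further list, paralogs of members that were too low to test, and marker lists. Rb1cc1, Atg9b, Gm2a, Psap, Asah1, Atp6v0a1, Atp6v0a2, Tcirg1, Ctss, Laptm5, Bnip3, Atp6v1c2, Cntd1, Dxo, Ankzf1, Gm49369, Gm49230 and Wdr45b were named after their values were seen. Mir21a, Gm45208 and D630045J12Rik were named for their overlap with Vmp1, Wdr45 and Atp6v0a4. Of the further hydrolases, 1 is counted but not reported here. Alternatives were another pseudocount (0.1), other filters, all gene types, TPM, median scaling, quantile normalization, no trend, the replicate number as a block, and leaving out each library. Shared stretches of 75 bases and exon overlaps were counted on GENCODE M21, and they are not given above for every named gene. Of the stretches of Bnip3l 16.9% occur in other genes, and of those of Arsa 14.3%. Exons of D630045J12Rik overlap those of Atp6v0a4 on the same strand.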

Additional observations from a re-analysis of the deposited data

How the results depend on the processing

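Leaving out 1 library at a time gave between 0 and 5 autophagy genes called higher (3 with all libraries), 0 to 1 called lower (2), and 1 to 4 lysosome genes called higher (3). The median difference ran from -0.13 to -0.01 for autophagy genes and from 0.02 to 0.17 for lysosome genes. All tested genes called higher numbered 497 to 1146 and called lower 805 to 3135, and the lowest counts came with 1 control left out, when the lone control is taken to vary like the knockouts. Median scaling and quantile normalization each gave 5 autophagy genes higher and 0 lower, with medians of 0.15 and 0.05. Of all tested genes 1925 were higher and 1568 lower with median scaling. Under quantile normalization 1683 of them were higher and 1917 lower. With median scaling 6 lysosome genes were higher and their median was 0.28, and under quantile normalization 2 were higher. Removing the filter or adding all gene types left 1 autophagy gene lower. Ctsz was called lower with TPM, the 1 such lysosome gene, and the autophagy median was -0.09. With the replicate number as a block, 1 autophagy gene (Atg3) and 1 lysosome gene (Ctsz) were called lower, and the same-numbered libraries did not deviate together (correlation -0.077), so the numbers were not taken as pairs. Ulk2 was not called under the block (limma adjusted p = 0.0684).

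Directions that turned belonged to genes not called with all libraries as the values stand, of which Ulk1 was called higher without the first knockout (limma adjusted p = 0.0282). With median scaling these were Atg13 (0.06), Atg101 (0.16), Becn1 (0.15), Pik3c3 (0.01), Wipi2 (0.05), Atg16l1 (0.16), Atg4b (0.03), Map1lc3a (0.01), Map1lc3b (0.02), Gabarapl1 (0.00), Gabarapl2 (0.13), Tfeb (0.15), Mcoln1 (0.15), Ctsa (0.00) and Hexa (0.08). Under quantile normalization they were Atg101 (0.13), Becn1 (0.08), Atg16l1 (0.13), Gabarapl2 (0.02), Tfeb (0.16), Lamp1 (-0.03), Mcoln1 (0.09) and Hexa (0.10), and with TPM Gabarap (-0.02) and Lamp1 (-0.05). Without 1 library the difference turned for Ulk1 (-0.25 to 0.45), Atg101 (-0.15 to 0.10), Becn1 (-0.16 to 0.08), Atg14 (-0.15 to 0.49), Atg12 (-0.04 to 0.12), Atg16l1 (-0.11 to 0.06), Map1lc3b (-0.40 to 0.07), Gabarap (-0.04 to 0.09), Gabarapl2 (-0.12 to 0.01), Tfeb (-0.18 to 0.10), Lamp1 (-0.08 to 0.09) and Hexa (-0.27 to 0.06). The cause was not tested. Ctsl, Wipi1, Atg2a and Atp6v1a stayed called under all 9 alternatives that kept every library, Ctsl also without any 1 library.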
